A study of Homo sapiens with 7 samples.

Results

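The genes described here are the core of mTORC1 and the regulators that control it at the lysosome, 10 genes in all: MTOR, RPTOR, MLST8, AKT1S1, DEPTOR, RHEB, TSC1, TSC2, RRAGA and RRAGB. They were taken by name from the 36337 gene names on the array, and 15 of its 58717 non-control spots carry them. The series asked how the human colon carcinoma line HCT116, here a diploid derivative carrying the chromatin marker H2B-GFP, responds to bafilomycin A1, an inhibitor of the proton pump that acidifies the lysosome. The 4 bafilomycin samples received 10 nM for 30 h, and their total RNA was hybridised with Cy3 to 1-colour oligonucleotide arrays. The 3 untreated samples were not analysed here, so no change upon treatment is reported and every value is a level in treated cells. Both groups come from 1 line carrying the same marker, and the labels do not say whether replicates were separate cultures, although the study's methods speak in general of independent biological replicates.

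mTORC1 is a protein kinase complex that couples growth to nutrients and growth factors. In the presence of amino acids the Rag GTPases draw it to the lysosomal surface, where the small GTPase Rheb switches it on, while the TSC complex switches Rheb off. The V-ATPase, which bafilomycin blocks, takes part in the signalling of amino acids to the Rag GTPases. Kinase activity and location are not read by an RNA array, and in bulk RNA fewer cells and less RNA per cell cannot be told apart.

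The probes of MLST8 and TSC2 are shown here because the 2 probes of each gene moved apart on the same array, and that of RRAGB as a probe poor in G and C. The coordinates are those of the array design on GRCh37, and capitals mark G and C bases. No annotation of that build was used, so exon or UTR is not given. MLST8 has a probe at chr16:2256542-2256601 on the plus strand and another near the 3′ end of the gene at chr16:2259234-2259293, of which the first 30 bases are printed. TSC2 has probes at chr16:2100427-2100486 and at chr16:2136775-2136834, both on the plus strand. The single RRAGB probe lies at chrX:55779886-55779945 on the plus strand.
MLST8 A_33_P3276519: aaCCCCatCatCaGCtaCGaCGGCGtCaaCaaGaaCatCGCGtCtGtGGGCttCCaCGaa
MLST8 A_33_P3256054: taGaGaaCaCCaCCaCCatGGCCaGGtGGa
TSC2 A_33_P3281686: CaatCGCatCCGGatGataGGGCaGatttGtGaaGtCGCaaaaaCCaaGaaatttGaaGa
TSC2 A_23_P66110: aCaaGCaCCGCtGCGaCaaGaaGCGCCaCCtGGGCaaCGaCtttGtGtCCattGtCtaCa
RRAGB A_23_P73721: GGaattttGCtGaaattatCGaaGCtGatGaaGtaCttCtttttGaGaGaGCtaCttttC

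All 10 genes had at least 1 probe well above background on all 4 arrays, beside 52.5% of all gene names. Of the 15 probes, 13 were well above background on all 4 arrays, and none of the member spots was marked as an outlier or saturated. Of the arrays as a whole, between 55.6 and 60.4% of spots were well above background. Replicate 3 carried 2249 spots marked as outliers, while the other arrays carried 514 to 725. Levels are given as the log2 background-subtracted signal minus the median log2 signal of the same array, and probes differ in brightness, so levels of different probes were not ranked. Where a gene has 2 probes, its gene level is the median over them. The span is the highest array over the lowest, as a fold, and 1.4-fold, the cut-off for changes in the study's methods, served as the mark. By this measure 6 of the 10 members (AKT1S1, DEPTOR, RHEB, TSC1, RRAGA and RRAGB) spanned more than 1.4-fold between arrays of the same treatment, against 46.4% of the 19083 detected genes. The median SD of the members was 0.22, against 0.21 over all detected genes.

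The labelled tissue was checked against marker genes. Of 10 markers of colon epithelium 8 were well above background on all 4 arrays, beside 52.5% of all gene names. The keratins KRT18 and KRT19 read 10.60 and 11.81 and the adhesion protein EPCAM 8.84. CDH1, KRT8 and CDX2 read 5.81, 5.39 and 3.84, and KRT20 and LGALS4 only -0.13 and -0.61. VIL1 and CEACAM5 did not pass background on any of the arrays. Of markers of other tissues, 2 of 5 for haematopoietic cells, 1 of 5 for fibroblasts and muscle and 2 of 3 for endothelium were well above background on all 4 arrays. These were PTPRC and CD3E (-0.34), COL1A1 (2.91), and CDH5 and VWF (0.83 and 0.75). PTPRC read -2.07 over all its probes and 0.57 on the 1 of its 5 probes well above background on all 4 arrays.

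**Figure D1:**
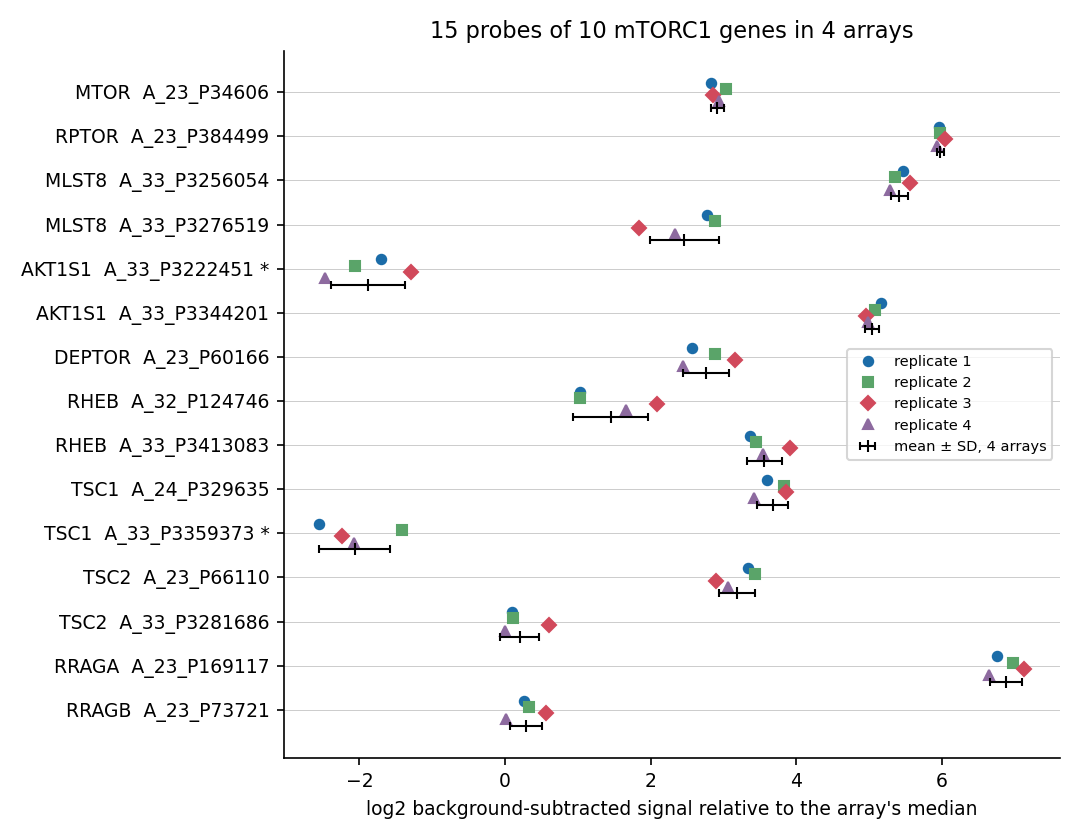
Level of each of the 15 member probes on each of the 4 bafilomycin arrays (horizontal axis, log2 signal relative to the array's median), with the mean ± SD beneath. Asterisks mark the 2 probes that were not well above background on every array, and RPTOR shows the narrowest spread while RHEB A_32_P124746 and MLST8 A_33_P3276519 show wide ones.

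Among the proteins of the catalytic core, the RNAs of MTOR and RPTOR varied little between arrays. MTOR, the kinase itself, read 2.84, 3.04, 2.86 and 2.94 on replicates 1 to 4 (2.92 ± 0.09, SD, n = 4), from signals of 487 to 575 on a probe at chr1:11167492-11167551 on the minus strand. Replicate 2 was highest and replicate 1 lowest, 1.15-fold apart. RPTOR, which encodes Raptor, the scaffold that presents substrates to the kinase, read 5.96, 5.98, 6.04 and 5.94 (5.98 ± 0.05, n = 4) on a probe at chr17:78939983-78940042. Its 4 arrays lay within 1.08-fold, the smallest spread among the members at these levels. This place depends on the processing. After normexp and quantile normalization, described below, the SD of TSC2 (0.06) was smaller than that of RPTOR (0.08). That of MTOR was then 0.11, as was the members' median.

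MLST8, a WD-repeat protein bound to the kinase domain in both mTOR complexes, gave a different picture on each of its probes. The probe near the 3′ end, A_33_P3256054, read 5.47, 5.36, 5.56 and 5.29 (5.42 ± 0.12, n = 4), and replicate 3 was its highest array. A_33_P3276519 read 2.77, 2.89, 1.84 and 2.34 (2.46 ± 0.47, n = 4), and here replicate 3 was the lowest array, 2.06-fold below replicate 2. The signals of that second probe were 527, 518, 252 and 321, so the deviation of replicate 3 from the mean of the other arrays was -0.82 on the log2 scale, and without it the span was 1.46-fold. The gene level, 3.94 ± 0.21, spanned 1.34-fold and does not show this difference between the probes.

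The inhibitory partners of the complex are PRAS40, encoded by AKT1S1, and DEPTOR. For AKT1S1 the probe at chr19:50372587-50372646 on the minus strand read 5.17, 5.08, 4.95 and 4.98 (5.05 ± 0.10, n = 4), a span of 1.16-fold with replicate 1 highest. The other AKT1S1 probe, at chr19:50381428-50381487, was well above background on 2 arrays, with signals of only 23.6, 16.9, 28.6 and 11.4. The gene level joined both and spanned 1.49-fold, so the place of AKT1S1 among the 6 genes rests on the dim probe. In RefSeq the AKT1S1 gene overlaps TBC1D17, MLST8 overlaps BRICD5, TSC2 overlaps PKD1, MTOR overlaps ANGPTL7 and RPTOR overlaps LOC124904075. Which transcript each probe of these genes reads was not tested.

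DEPTOR, which binds the kinase and restrains it, read 2.57, 2.88, 3.16 and 2.44 (2.76 ± 0.32, n = 4) on its single probe at chr8:121062582-121062641. The signals were 457, 517, 626 and 345, with replicate 3 highest and replicate 4 lowest, 1.64-fold apart. Without replicate 3 the other arrays spanned 1.36-fold.

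RHEB, the GTPase that activates mTORC1, had gene levels of 2.20, 2.24, 3.00 and 2.60 (2.51 ± 0.37, n = 4), a span of 1.74-fold. This was the largest SD of the 10 gene levels, but without replicate 3 it was 0.22, below that of TSC1 (0.36). The probe at chr7:151163128-151163187 on the minus strand read 3.37, 3.44, 3.91 and 3.54 (3.56 ± 0.24), and A_32_P124746 read 1.03, 1.04, 2.09 and 1.66 (1.45 ± 0.52). On both probes replicate 3 was the highest array and replicates 1 and 2 the lowest. The array design places A_32_P124746 at chr7:151164130-151164189 on the plus strand, whereas the other RHEB probe lies on the minus strand, the strand that RefSeq gives for RHEB. This probe had the largest SD of the 15, with signals of 157, 144, 298 and 201. Whether it reads RHEB mRNA or a transcript of the opposite strand was not tested. The probe on the gene's own strand alone spanned 1.46-fold, with an SD below that of DEPTOR (0.32).

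TSC1 and TSC2 encode hamartin and tuberin, the pair that forms the GTPase-activating complex for Rheb. For TSC1 the probe at chr9:135766811-135766870 on the minus strand read 3.59, 3.84, 3.86 and 3.42 (3.68 ± 0.21, n = 4), a span of 1.36-fold with replicate 4 lowest. The other TSC1 probe, at chr9:135786626-135786685, was well above background on replicate 2 only, with signals of 13.1 to 26.4. The gene level of TSC1 spanned 1.62-fold, and like that of AKT1S1 it passed 1.4-fold only with the dim probe included.

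The probes of TSC2 deviated to opposite sides of their means on 3 of the 4 arrays. A_23_P66110, at the 3′ side of the pair, read 3.34, 3.44, 2.90 and 3.06 (3.19 ± 0.25, n = 4), and replicate 3 was its lowest array. A_33_P3281686, 36348 bases upstream, read 0.09, 0.12, 0.60 and 0.00 (0.20 ± 0.27, n = 4), from signals of only 63.5 to 106. Replicate 3 was its highest array. On replicate 3 the former deviated by -0.38 and the latter by 0.53 from the mean of the other arrays. The opposite deviations cancelled in the gene level of 1.69 ± 0.11, the smallest SD among the 5 members with 2 probes, although each probe spanned more than 1.4-fold (1.45 and 1.51). Without replicate 3, A_33_P3281686 spanned 1.08-fold.

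RRAGA and RRAGB encode the closely related RagA and RagB GTPases, which pair with RagC or RagD. RRAGA read 6.76, 6.99, 7.14 and 6.65 (6.88 ± 0.22, n = 4) on a probe at chr9:19050839-19050898, from signals of 6382 to 9888. Its span lay just above the 1.4-fold mark. RRAGB read 0.26, 0.34, 0.56 and 0.01 (0.29 ± 0.22, n = 4), from signals of only 64.0 to 103, and spanned 1.46-fold. The order of the arrays was the same in both genes, with replicate 3 highest, then 2, then 1 and then 4. This order is not particular to them. DEPTOR and TSC1 A_24_P329635 had it too, as did the mean deviation over all detected genes.

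Replicate 3 was highest in 6 of the 10 gene levels and replicate 2 in 4, and replicate 4 was lowest in 6, replicate 1 in 3 and replicate 3 in 1, that of MLST8. Over all detected genes replicate 3 was highest in 48.5% and replicate 2 in 25.3%. Replicate 4 was lowest in 35.1% of them, replicate 1 in 26.9% and replicate 3 in 23.2%. The count of 6 for replicate 3 as highest lies near the share on the whole array. That of 6 for replicate 4 as lowest lies above it, and this difference was not tested. The order in AKT1S1 is that of its dim probe, while on its other probe replicate 1 was highest and replicate 3 lowest. The mean deviation of the 10 members from their own means was -0.07, 0.07, 0.15 and -0.15 on replicates 1 to 4, and over all detected genes it was -0.02, 0.03, 0.07 and -0.09. After normexp background correction and quantile normalization, which forces the same distribution on each array, the members' mean deviations were 0.01, 0.02, 0.01 and -0.03. Their median SD was then 0.11, as over all detected genes (0.11), and MLST8 and RHEB were the 2 members that spanned more than 1.4-fold, against 15.5% of all detected genes. This setting, below called quantile normalization, also adds an offset of 50 to each signal before the log, which narrows the spread of dim probes. The SD of the dim probe AKT1S1 A_33_P3222451 went from 0.50 to 0.13 under the setting as a whole. Spans under it are thus not on the scale of the others, and the parts of its steps were not told apart. Dixon's ratio is the gap between an extreme array and its neighbour over the whole range. For the levels as first given, it passed its critical value for 4 arrays in no member, beside 8.48% of all detected genes. With only 10 members, a count of none does not set them apart from that share. The probe nearest to the critical value was TSC2 A_33_P3281686 with a ratio of 0.811.

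**Figure D2:**
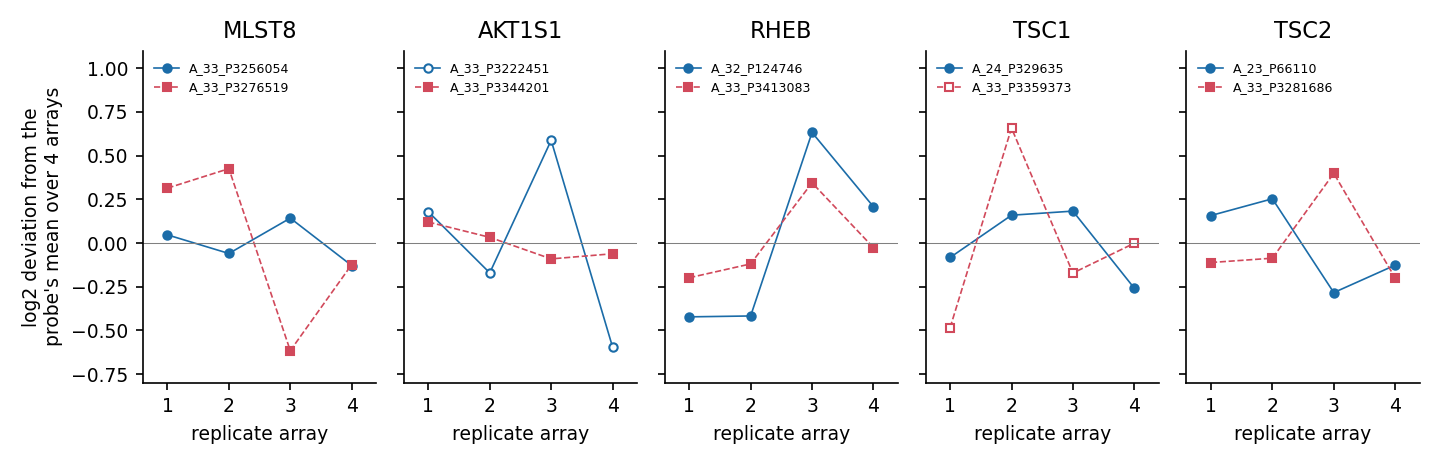
Deviation of each probe from its own mean over the 4 arrays (vertical axis, log2) for the 5 members with 2 probes, by replicate array, with open symbols for the probes near background. The probes of MLST8 and of TSC2 part on replicate 3, and those of RHEB both lie above their means there.

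Among the 5 genes with 2 probes, the difference between the probes varied across arrays with an SD of 0.54 for MLST8, 0.51 for AKT1S1, 0.30 for RHEB, 0.45 for TSC1 and 0.47 for TSC2. Over 2711 genes on the array with 2 probes well above background the median of this SD was 0.24 and the upper quartile 0.37. Of the 3 members whose probes were both well above background, MLST8 and TSC2 lay above that quartile and RHEB below it. In TSC2 the probes deviated to the same side of their means on 1 array, in MLST8 on 2 and in RHEB on 3. Of the 2711 genes, 3.54% had no array with both probes on the same side, 16.9% had 1, 25.8% had 2, 31.5% had 3 and 22.3% had all 4.

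The deviations of replicate 3 were set beside the base composition of the probes, whose part in them was not tested further than the values given here. All 3 member probes with under 40% G and C bases (RHEB A_33_P3413083, TSC1 A_24_P329635 and RRAGB) were higher on replicate 3 than on the other arrays, by 0.24 to 0.46. Of the 5 probes with 41.7 to 45% G and C, 4 were higher (RHEB A_32_P124746, TSC2 A_33_P3281686, DEPTOR and RRAGA) and 1, MTOR, was lower (-0.08). Of the 5 with 50 to 55%, the probes of MLST8 (A_33_P3276519), TSC2 (A_23_P66110) and AKT1S1 were lower, and those of RPTOR and MLST8 (A_33_P3256054) were higher by 0.09 and 0.19. Of the TSC2 probes printed above, the one that was higher on replicate 3 holds 41.7% G and C and the one that was lower 55%. The printed MLST8 probes both hold 55% over their full length and yet parted. Over all probes well above background on the 4 arrays the median deviation of replicate 3 was 0.33 under 40% G and C (7195 probes), 0.14 from 40 to under 50% (10612 probes), -0.08 from 50 to under 60% (5955 probes) and -0.12 at 60% or more (871 probes).

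**Figure D3:**
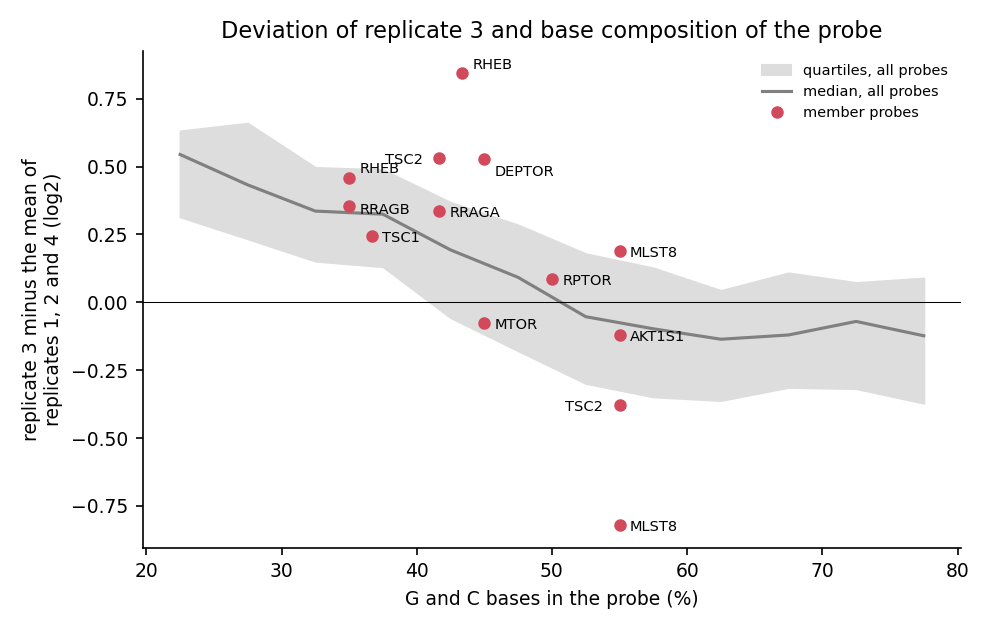
Deviation of replicate 3 from the mean of the other 3 arrays (vertical axis, log2) against the share of G and C bases in the probe (horizontal axis, %). Points are the 13 member probes well above background on all 4 arrays, and the line and band give the median and quartiles of all such probes, which fall from above 0 on AT-rich probes to below 0 on GC-rich ones.

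When the median deviation of each class of 5 percentage points of G and C was taken off each array, the SD of RRAGB went from 0.22 to 0.11, that of RRAGA from 0.22 to 0.11 and that of RHEB A_33_P3413083 from 0.24 to 0.11. RRAGA and RRAGB then no longer spanned 1.4-fold, with 1.18 and 1.19-fold. The gene levels of AKT1S1, DEPTOR, RHEB and TSC1 still did, against 37.4% of all detected genes. Without their dim probes, AKT1S1 and TSC1 spanned only 1.03 and 1.23-fold. In RHEB the probe on the gene's own strand spanned 1.17-fold and A_32_P124746 1.91-fold. DEPTOR spanned 1.47-fold on its single probe. The SD was still 0.40 for MLST8 A_33_P3276519, 0.47 for RHEB A_32_P124746 and 0.26 for DEPTOR. The probes of TSC2 still parted on replicate 3, with deviations of -0.28 for A_23_P66110 and 0.34 for A_33_P3281686. In MTOR, RPTOR and MLST8 A_33_P3256054 the SD was larger after this step, at 0.11, 0.08 and 0.15.

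No member is among the 902 probes printed in 10 spots, which show how far spots of 1 probe differ within an array. For each member the SD between arrays was set beside the median spot SD of those probes whose mean level lay within 0.5 log2 of its own. The SD between arrays was below that value for MTOR (0.09 beside 0.17), RPTOR (0.05 beside 0.16), MLST8 A_33_P3256054 (0.12 beside 0.16) and AKT1S1 A_33_P3344201 (0.10 beside 0.17). It was above it in 9 of the 13 probes, most in RHEB A_32_P124746 (0.52 beside 0.18) and MLST8 A_33_P3276519 (0.47 beside 0.17). For RRAGB the values were 0.22 and 0.22, and for TSC2 A_33_P3281686 0.27 and 0.22.

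**Figure D4:**
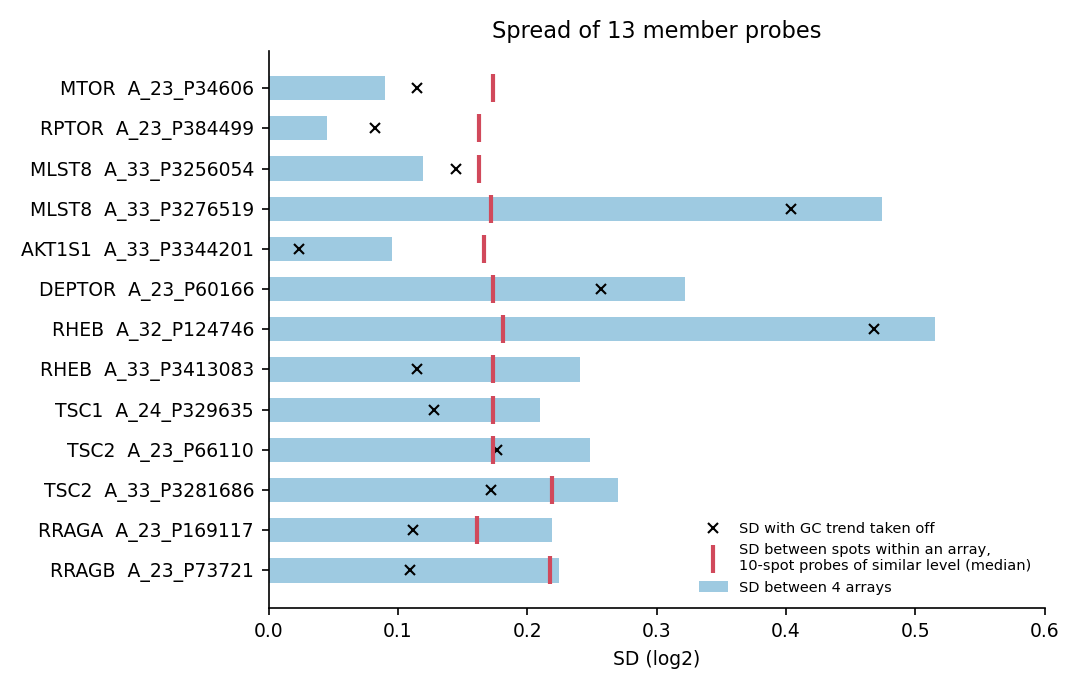
SD over the 4 arrays of the 13 member probes well above background on all of them (bars, log2), the same after each array's GC trend was taken off (crosses) and the median SD between spots within an array for 10-spot probes of similar level (red marks). The bars of MTOR, RPTOR, MLST8 A_33_P3256054 and AKT1S1 end before the red mark.

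The wider pathway was read from a list of 63 further genes, of which 61 were found by name (GATSL2 and EIF4EBP3 were not). Of these 57 were detected, beside 52.5% of all gene names. Among the 57, 26 spanned more than 1.4-fold, beside 46.4% of all detected genes, and the median SD was 0.21. The partners of the members were detected in nearly every group: RRAGC and RRAGD, which pair with RagA and RagB, at 2.91 ± 0.31 and 3.65 ± 0.19, all 5 subunits of Ragulator, the lysosomal anchor of the Rags, all 3 of GATOR1, the complex that inactivates RagA and RagB, all 5 of GATOR2 and all 4 of KICSTOR. In Ragulator 1 of 5 genes, LAMTOR3, spanned more than 1.4-fold, and it did so only with its dim probe included (1.35-fold without it). Of the amino acid sensors 5 of 7 spanned as much, beside 46.4% of all detected genes, and after quantile normalization 1, SESN2, did (1.59-fold). TBC1D7, the third subunit of the TSC complex, read 2.83 ± 0.07. PRR5L, a partner of mTORC2, did not rise well above background on any array. RUVBL1 and RHEBL1, the paralog of RHEB, each lacked a usable value on 1 array. FLCN, a GTPase-activating protein for RagC and RagD, had the largest SD of the 57 (0.15 ± 0.51), but its SD was 0.42 over its detected probes, less than that of TTI2 (0.49), and 0.18 without replicate 3. TFEB, a lysosomal transcription factor that mTORC1 phosphorylates, had the smallest (4.16 ± 0.06), and after quantile normalization its SD was 0.15, with those of EIF4B (0.41) and WDR59 (0.02) then the largest and the smallest.

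Promoter windows from RefSeq on GRCh38.p14, running from 250 bases before to 50 after the start, were matched for 6 of the 10 genes. The palindrome CACGTG, which contains the core bound by basic helix-loop-helix factors and reads the same on both strands, occurred in 1 of the windows of TSC2, once, and in that of RRAGB, 3 times. It occurred in 7.26% of 35116 windows of the same length. MTOR, RPTOR, RHEB and TSC1 held none in these windows. The RRAGB stretch is shown because it holds 2 of its matches, in capitals.
RRAGB, chrX:55717629-55717748, plus strand, GRCh38.p14: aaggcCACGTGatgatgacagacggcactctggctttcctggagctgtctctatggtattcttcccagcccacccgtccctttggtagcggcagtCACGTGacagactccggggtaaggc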

How the data were processed

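The authors extracted total RNA, labelled it with Cy3 and hybridised it to Agilent 60-mer arrays, and the deposited files hold Feature Extraction 10.7.3.1 output of the 4 bafilomycin arrays with background-subtracted intensity per spot and its flags. Log2 intensities were centred on each array's median and the median over a gene's probes was taken, as in the study's methods. Averaging the spots of a probe and taking the array median over probes with a positive signal were choices made here. Control spots and spots with any outlier flag were left out. A probe counted as well above background where over 50% of its spots carried that flag, and a gene as detected where at least 1 probe did so on all 4 arrays. The number of arrays limits the precision. No test between groups was run, since the 3 untreated samples were not analysed here. The only test was for 1 array lying apart, by Dixon's ratio.

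Members were taken by gene name. All 10 were described with every probe, and of the pathway list those genes on no array, with extreme SD or with an array apart were named, apart from 1 item that is not reported here. Members and lists were chosen with earlier results of these data known. The alternatives were kept outliers, the scanner's processed signal with each array's 75th percentile as its centre, normexp (offset 50) with quantile normalization in limma 3.58.1 (R 4.3.3), centring on the median of all probes, other probe rules, each array left out and, chosen after seeing the data, removal of each array's GC trend. Other steps used Python 3.11.15, pandas 2.3.3, numpy 2.4.6 and matplotlib 3.10.9. Of the steps, only the SD and Dixon's ratio were tested on simulated data. Sequences came from the deposited files and, for promoters, from RefSeq (GRCh38.p14).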

Additional observations from a re-analysis of the deposited data

Results flagged for a closer look

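Among the 67 detected member and pathway genes and 13 member probes examined, Dixon's ratio of the gap beside an extreme array to the whole range passed its critical value for 4 arrays in 2 genes, neither of them a member. Chance alone does so in about 5% of groups, and 8.48% of all detected genes did, of which 63.3% had replicate 3 apart. FNIP2, a folliculin partner, read 1.00, 1.42, 1.37 and 1.37 on replicates 1 to 4, with replicate 1 lowest and a ratio of 0.881. EIF4EBP2, a repressor of translation that mTORC1 phosphorylates, read 5.38, 5.42, 5.80 and 5.35, with replicate 3 highest and a ratio of 0.837.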

How the results depend on the processing

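No paired analysis was possible because the untreated samples that share replicate numbers with the bafilomycin samples were not analysed here. All 10 members remained detected under every alternative, except that 8 did where each probe of a gene had to be well above background. The number of members spanning more than 1.4-fold, 6 as reported, was 3 for the scanner's processed signal at a centre of the 75th percentile (DEPTOR, RHEB and TSC1, against 39.1% of all detected genes), 2 with normexp and quantile normalization and 1 to 6 when 1 array was left out. It was 1 without replicate 3, TSC1, whose gene level includes a dim probe, where 21.9% of all detected genes spanned as much, and 3 without replicate 4, where 39.5% did. The median SD of the members, 0.22 as reported, was 0.112 with quantile normalization, 0.125 with the GC trend taken off and 0.174 to 0.261 with 1 array left out. The number of pathway genes spanning more than 1.4-fold, 26 of 57 as reported, was 11 with quantile normalization, 16 with the GC trend taken off and 6 to 23 with 1 array left out. Of all detected genes, 15.5%, 37.4% and 21.9 to 39.5% spanned as much under these settings. The causes of the differences between settings were not tested. The levels of all 10 members moved by more than 1 SD under each of the 3 scalings that set another reference level, and those of AKT1S1 and TSC1 when the dim probes were dropped.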

Other observations

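Of 6 pathway probes printed in 10 spots, the SD between arrays was set beside the SD between spots within an array. These were 0.23 and 0.24 for LAMTOR3, 0.15 and 0.15 for LAMTOR5, 0.18 and 0.20 for TBC1D7, 0.12 and 0.20 for DDIT4, an inhibitor of mTORC1 induced by stress, 0.20 and 0.22 for EIF4EBP2, and 0.13 and 0.10 for GRB10, an adaptor that mTORC1 phosphorylates. The SD between arrays is that of the mean over the 10 spots, whereas the SD within an array is that of single spots. A mean over spots varies less than single spots do, so these values are not on the same scale. Which spread is the larger was not tested.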
